A study of Danio rerio with 4 samples.

Results

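Hemoglobin carries oxygen in red blood cells. It is built from alpha-type and beta-type globin chains, each holding a heme group, and a cell that makes it needs both kinds of chain in similar amounts. In zebrafish, alpha-type and beta-type genes sit side by side in a major and a minor cluster, and the embryonic and larval genes are transcribed very strongly in the primitive erythrocytes that circulate through the head at this stage. The genes described here are the embryonic globin genes, chosen as every gene of the deposited table whose symbol begins with hba, hbb or hbz. The rule gave 10 of the 756 genes listed, 5 of alpha type (*hbae1*, *hbae1.3*, *hbae3*, *hbz* and *hbae5*) and 5 of beta type (*hbbe1.1*, *hbbe1.2*, *hbbe1.3*, *hbbe2* and *hbbe3*). By the gene order of a RefSeq table, 6 of them lie in the major cluster and 4 in the minor cluster. The 4 adult globin genes of the RefSeq table were not analysed here.

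The RNA came from zebrafish larvae labelled wild type that carried the *apln* reporter TgBAC(apln:Venus-PEST) together with the endothelial reporter Tg(kdrl:Hsa.HRAS-mCherry). Cells of their heads at 48 hpf (hours post fertilization) were sorted by FACS and sequenced in bulk with Smart-seq2. Venus positive, mCherry negative cells gave 2 libraries and double negative cells gave another 2, and both groups carried both transgenes. Venus with a destabilizing PEST sequence reports *apln*, the gene of the secreted peptide Apelin, and mCherry reports *kdrl* in endothelial cells, so both groups were depleted of mCherry positive endothelium. The double negative group is a mixture of head cells without either fluorescence, and the labels name no gate or step that selected or removed erythrocytes. The comparison was made by the study to characterize the cells that express *apln*. The Venus positive libraries bear the numbers 3 and 4 in the deposited table, and these are kept here. Whether the libraries of each sorted population came from different clutches or sorting days is not given in the labels or methods, so the p-values reflect library-to-library spread alone, which may be technical.

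All 756 genes had passed the authors' own comparison of these libraries, with Q values under 0.05 over 23016 genes. A globin gene is therefore in the table because it differed between the groups, and the differences below are given as a description. The make-up of the globin transcripts within each library is compared between the groups further on. This make-up was not itself used for the selection, but it covers only genes that each passed it. A globin gene that kept its level would be missing from it. Between 876579 and 1175560 reads per library fell on the listed genes. The sorted gene itself, *apln*, had 11006 and 8899 normalized read counts in Venus positive libraries 3 and 4, against 651 and 802 in the double negative libraries.

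The globin transcripts were among the most abundant listed in the double negative cells and were reduced to a small remainder in the Venus positive cells. TPM, a unit of transcript abundance, corrects each count for gene length and sums to the same total in every library, so a sum of TPM is a share of all transcripts. The 10 genes together took 0.153% and 0.134% of TPM in Venus positive libraries 3 and 4, against 7.00% and 9.68% in double negative replicates 1 and 2, where the Venus positive values were rebuilt from the read counts and the authors' mean TPM. The groups were far apart and did not overlap, but each gene in the sum had been listed for a difference between them. In the authors' mean TPM the sum was 0.144% in Venus positive cells and 8.34% in double negative cells, 58.0-fold lower in the Venus positive cells. In bulk samples, fewer erythrocytes and less globin RNA per erythrocyte cannot be told apart. The source of the globin reads that remained in the Venus positive libraries was not tested.

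The alpha-type and the beta-type genes were lower to nearly the same degree. The 5 alpha-type genes summed to 0.0833% of mean TPM in Venus positive cells and 4.83% in double negative cells, 58.0-fold lower. The 5 beta-type genes summed to 0.0605% in Venus positive cells and 3.50% in double negative cells, 57.9-fold lower. In normalized read counts, which are counts divided by the authors' size factor of each library, the 10 genes summed to 5583 and 3817 in the Venus positive libraries, against 211754 and 392164 in the double negative libraries. The log2 ratio of these sums averaged -5.96, and it ranged from -6.41 without double negative replicate 1 to -5.52 without double negative replicate 2. An exact permutation test over 2 libraries against 2 cannot go below p = 0.333, two-sided.

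The 6 genes of the major cluster carried nearly all of the signal. *hbae1.3* (NCBI gene 572729), an embryonic alpha-type chain, was the most abundant of all listed genes in the double negative cells by mean TPM. It had 1865 and 1449 normalized read counts in Venus positive libraries 3 and 4, against 65052 and 138634 in the double negative libraries. The beta-type gene *hbbe1.3* (573653), next in abundance, had 1246 and 843 in the Venus positive libraries, against 49224 and 86226 in the double negative libraries. The alpha-type gene *hbae1* (30597) had 950 and 575 in the Venus positive libraries, against 38749 and 68209 in the double negative libraries. For each of these genes the lowest double negative value was well above the highest Venus positive value. As listing had required a difference between the groups, nothing is read from this gap. Each of them had more counts in Venus positive library 3 than in library 4, and fewer in double negative replicate 1 than in replicate 2.

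The other major-cluster genes behaved alike at lower levels. The beta-type copy *hbbe1.2* (793447) had 655 and 571 normalized read counts in Venus positive libraries 3 and 4, against 28624 and 50647 in the double negative libraries. The beta-type copy *hbbe1.1* (81538) had 486 and 126 in the Venus positive libraries, against 16503 and 19239 in the double negative libraries. The alpha-type gene *hbae3* (30601) had 241 and 152 in the Venus positive libraries, against 8913 and 18656 in the double negative libraries. No library of one group reached into the range of the other, but these genes too had been listed for a difference. *hbbe1.1* stood out for the gap between the Venus positive libraries, the widest of the 8 members that had more than 3 reads in both of them. The reads of *hbae1*, *hbae1.3* and the *hbbe1* copies were partly divided by estimation among similar copies, since their deposited counts were fractional. The split between these 5 genes is therefore uncertain. LOC100334599, a globin gene outside the rule that is described below, also had fractional counts. Sums and ratios over the members can therefore carry part of this error too.

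The 4 genes of the minor cluster were scarcer and showed the same direction. The beta-type gene *hbbe3* (30596) had 75.4 and 58.1 normalized read counts in Venus positive libraries 3 and 4, against 3023 and 7248 in the double negative libraries. The beta-type gene *hbbe2* (405772) had 62.8 and 40.8 in the Venus positive libraries, against 1373 and 2849 in the double negative libraries. The alpha-type gene *hbz* (563335) rested on 1 and 2 reads in the Venus positive libraries, which is 1.26 and 1.74 normalized read counts, against 183 and 315 in the double negative libraries. *hbae5* (561790), also of alpha type, had 0 reads in both Venus positive libraries, against 110 and 141 normalized read counts in the double negative libraries. The minor cluster was thus still measurable in the Venus positive cells through its beta-type genes, while its alpha-type genes were at or under the floor of 3 reads.

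**Figure D1:**
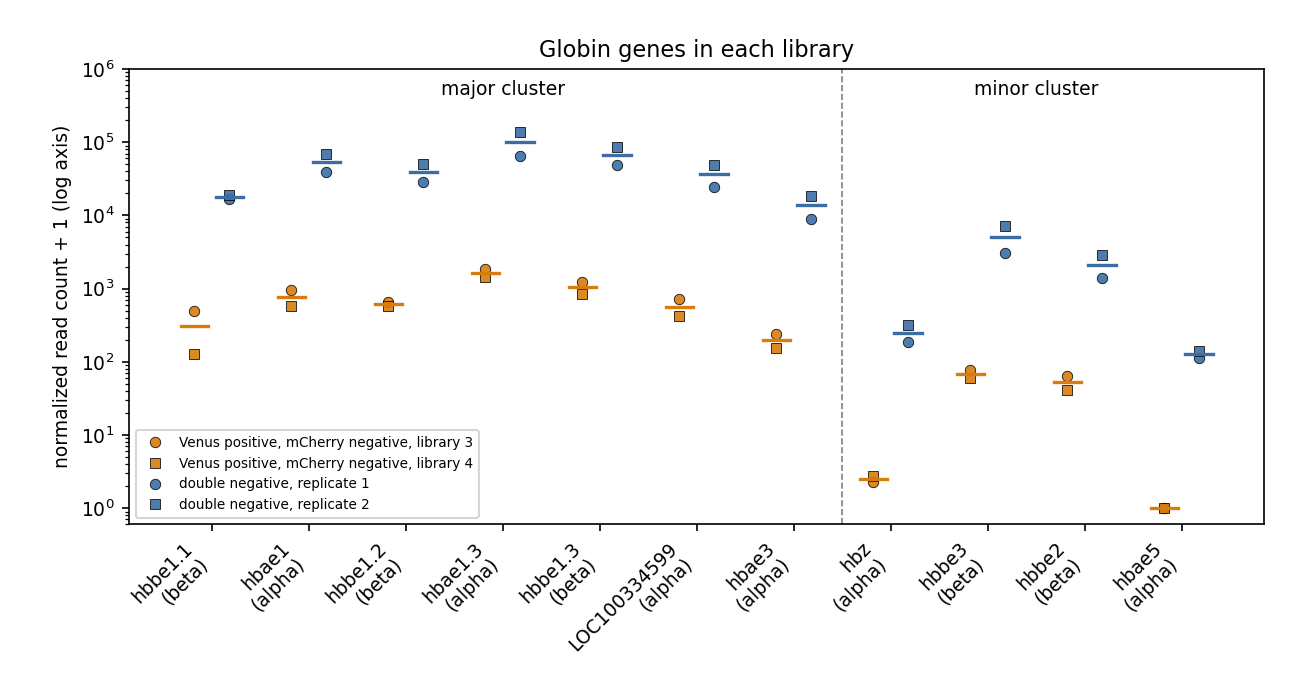
Normalized read count plus 1 (log axis) of each globin gene in the 2 Venus positive, mCherry negative libraries (orange) and the 2 double negative libraries (blue), ordered along the major and minor clusters, with the group means as lines. LOC100334599 is a further globin gene outside the symbol rule. For every gene both blue points lie above both orange points, from *hbae1.3* at 65052 and 138634 in double negative cells down to *hbae5*, which had 0 reads in both Venus positive libraries. Each gene was listed for a difference between these libraries, and the share of all listed genes that separate was not computed. Nothing is read from this separation.

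In the quasi-likelihood test of edgeR, Benjamini-Hochberg adjusted over the 754 genes tested, all 10 globin genes passed the filter on low counts and were lower in the Venus positive cells. The background was 35.8%, as 270 of the 754 tested genes were lower (484 higher), and nothing is read from the members' count because every gene had been selected by this same contrast. The split depends on scaling, with 84 higher and 270 lower under TMM scaling over the listed genes and 72 higher and 270 lower under RLE scaling. The median log2 fold change was -6.08 over the 10 members, or -6.02 with *hbae5* at its bound, against -4.70 over the 270 lower genes and 1.85 over all 754 genes. Under TMM scaling over the listed genes the median of the members was -7.82, and under RLE scaling -7.93.

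Within the family, the 8 genes with more than 3 reads in each Venus positive library had log2 fold changes of -6.27 to -5.35. *hbae1.3* was 61.5-fold lower in Venus positive cells (log2 fold change -5.94, SE 0.59, edgeR adjusted p = 1.2e-06) and *hbae1* 70.1-fold lower (log2 fold change -6.13, SE 0.59, edgeR adjusted p = 1.1e-06). Their beta-type neighbours *hbbe1.3* and *hbbe1.2* were 64.8-fold and 64.7-fold lower (log2 fold change -6.02 for each, SE 0.58 and 0.56). *hbbe1.1* was 58.4-fold lower (log2 fold change -5.87, SE 0.66, edgeR adjusted p = 3.5e-06). It rested on the Venus positive library used, with a log2 fold change of -7.15 without library 3 and -5.20 without library 4. *hbae3* was 70.1-fold lower (log2 fold change -6.13, SE 0.60). The intervals of 1 SE around these log2 fold changes all overlapped. As the genes were measured in the same libraries and moved together there, this overlap does not decide whether their fold changes differed. The genes are not ranked by fold change here.

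The minor cluster showed differences of similar size. *hbbe3* was 76.9-fold lower in Venus positive cells (log2 fold change -6.27, SE 0.61), and *hbbe2* 40.7-fold lower (log2 fold change -5.35, SE 0.60, edgeR adjusted p = 3.4e-06). Venus positive cells retained 2.45% of the double negative level of *hbbe2* and 1.3% of that of *hbbe3*. For *hbz* the reads per size factor were lower by a ratio of 157, with an exact 95% interval of 53.5 to 764 that covers counting error only. *hbae5* was at least 39.4-fold lower, taking 3 reads in each Venus positive library as the floor. Without double negative replicate 2, which had the higher globin counts, the log2 fold change was -5.50 for *hbbe3*, -5.50 for *hbae3*, -4.73 for *hbbe2* and -5.29 for *hbae1.3*. These were the members that leaving out a double negative library moved by more than 1.5-fold, and all 10 members stayed lower in each fit without 1 library. Such a fit leaves 1 library in a group, which is assumed to vary like those of the other group.

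A further globin gene lies between *hbbe1.3* and *hbae3* in the RefSeq order of the major cluster. The table lists it as LOC100334599, which the symbol rule does not take, while RefSeq calls this gene *hbae1.3* and gives the symbol *hbae1.2* to the gene the table calls *hbae1.3*. It had 710 and 424 normalized read counts in Venus positive libraries 3 and 4, against 24550 and 48746 in the double negative libraries. It was 64.6-fold lower in Venus positive cells (log2 fold change -6.01, SE 0.60, edgeR adjusted p = 1.2e-06 with Benjamini-Hochberg adjustment), inside the range of the named members. Its deposited counts were fractional, so it may share estimated reads with similar members and is no independent comparison. RefSeq also uses the symbol *hbae4* for the gene listed as *hbz*, and *hbae1.1* for the gene listed as *hbae1*.

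Compared per length, the order of the members was nearly the same in all libraries. In the authors' mean TPM of Venus positive cells it ran from *hbae1.3* (519) over *hbbe1.3* (291), *hbae1* (257), *hbbe1.2* (184), *hbbe1.1* (84.6), *hbae3* (56.8), *hbbe3* (28.6), *hbbe2* (17.6) and *hbz* (0.325) to *hbae5* (0). In double negative cells the mean TPM was 28170 for *hbae1.3*, 17045 for *hbbe1.3*, 16523 for *hbae1*, 10525 for *hbbe1.2*, 4891 for *hbbe1.1*, 3569 for *hbae3*, 1944 for *hbbe3*, 645 for *hbbe2*, 46.0 for *hbz* and 34.7 for *hbae5*. By this measure 6 members were among the 10 most abundant listed genes of the double negative cells, and *hbae1.3* was still at rank 16 of the 756 in the Venus positive cells. In TPM per library the same order held in double negative replicates 1 and 2 and in Venus positive library 3, while in library 4 *hbae3* (50.7 TPM) came above *hbbe1.1* (42.1 TPM).

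Some neighbours in that order had ranges that overlapped. *hbbe1.3* had 312 and 270 TPM and *hbae1* 290 and 225 TPM in Venus positive libraries 3 and 4, and they had 14785 and 19305 TPM and 14332 and 18714 TPM in the double negative libraries. The ranges of these 2 genes overlapped in both groups, although *hbbe1.3* was above *hbae1* within each of the 4 libraries. Those of *hbbe1.1* and *hbae3* overlapped in the Venus positive libraries, where *hbae3* had 62.9 and 50.7 TPM. In the double negative libraries *hbz* (40.2 and 51.8 TPM) and *hbae5* (35.5 and 33.9 TPM) were close but did not overlap. The *hbbe1* copies rose along the cluster, with *hbbe1.1* below *hbbe1.2* and *hbbe1.2* below *hbbe1.3* in every library. The alpha-type genes of the major cluster did not rise steadily along it. In cluster order their mean TPM in double negative cells was 16523 for *hbae1*, 28170 for *hbae1.3*, 9628 for LOC100334599 and 3569 for *hbae3*. Counts of the *hbbe1* copies were fractional, so the split between them is uncertain. In Venus positive libraries 3 and 4, *hbbe1.1* had 127 and 42.1 TPM, *hbbe1.2* had 174 and 194 TPM, and *hbbe1.3* had 312 and 270 TPM. In double negative replicates 1 and 2, *hbbe1.1* had 5237 and 4546 TPM and *hbbe1.2* had 9083 and 11967 TPM.

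The balance of alpha-type and beta-type transcripts was compared next, since a ratio within a library does not depend on its size factor. The ratio was not itself used to list the genes, but each gene in it was listed for a difference between the groups. Per length, alpha-type TPM was 1.32 and 1.44 times beta-type TPM in the Venus positive libraries, against 1.26 and 1.48 in the double negative libraries. The Venus positive values lay inside the range of the double negative values. In reads the ratio was 1.21 and 1.33 in the Venus positive libraries and 1.14 and 1.36 in the double negative libraries, a mean log2 difference of 0.02 (exact permutation test, two-sided, p = 1.0). This small difference had no stable sign, since it ranged from -0.10 to 0.15 when each library was left out in turn. Without *hbae1.3*, the ratio of reads was 0.472 and 0.445 in the Venus positive libraries, against 0.486 and 0.525 in the double negative libraries (log2 difference -0.14, exact permutation p = 0.333, the smallest possible). With LOC100334599 counted among the alpha-type genes, alpha-type TPM was 1.61 and 1.70 times beta-type TPM in the Venus positive libraries, against 1.51 and 1.77 in the double negative libraries. With all 10 genes the ratio differed between the 2 libraries of a group by more than between the group means, while without *hbae1.3* the groups did not overlap. A p of this size does not show that the groups share the same ratio.

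**Figure D2:**
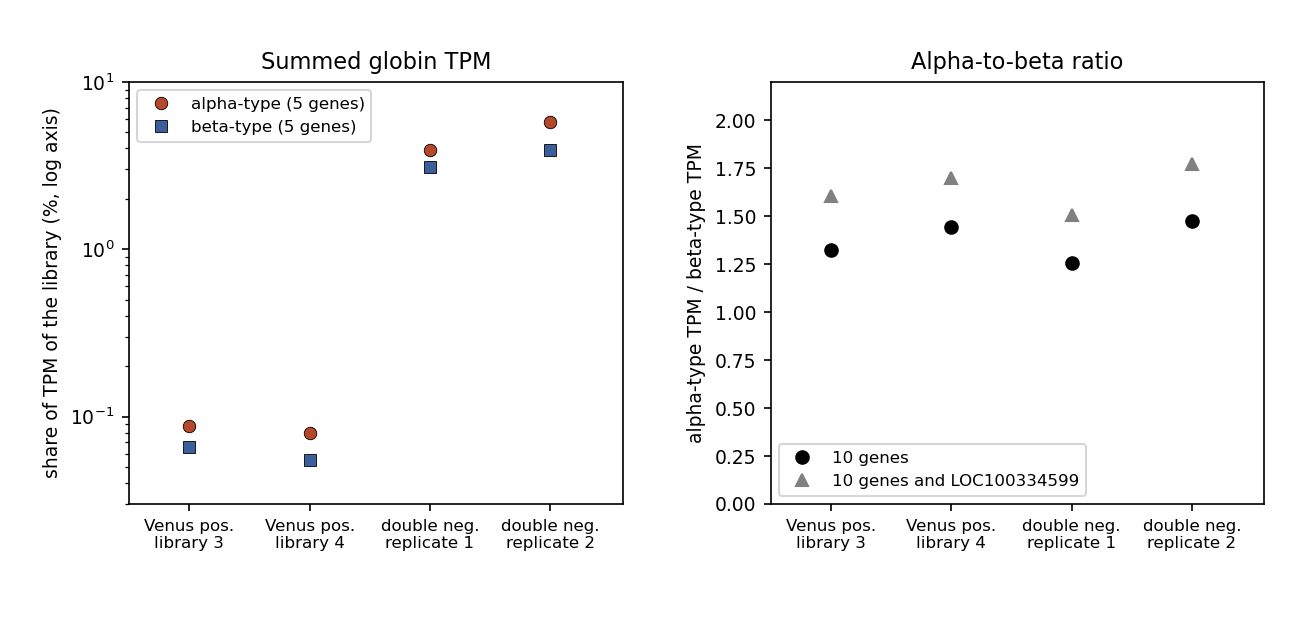
Left, summed TPM of the 5 alpha-type and the 5 beta-type globin genes as a share of all TPM of a library (percent, log axis), and right, alpha-type TPM divided by beta-type TPM, with and without LOC100334599, in each of the 2 Venus positive and 2 double negative libraries. Both sums are lower in the Venus positive libraries, while the ratio of the 10 genes stays between 1.26 and 1.48 in all 4 libraries.

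The share of each gene in the globin reads of its library shows the make-up of the family free of its total level. The globin reads numbered 4439 and 4397 in the Venus positive libraries, against 257734 and 383563 in the double negative libraries, so the shares were far less precise in the Venus positive libraries. Alpha-type genes held 54.8% and 57.1% of these reads in the Venus positive libraries, against 53.4% and 57.6% in the double negative libraries. The minor cluster held 2.50% and 2.64% in the Venus positive libraries, against 2.21% and 2.69% in the double negative libraries. Neither share separated the groups. A 58.0-fold difference in summed TPM thus came with nearly the same division between chain types and between clusters.

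Among single genes, 6 had shares that overlapped between the groups. The most abundant, *hbae1.3*, held 33.4% and 38.0% of the globin reads in the Venus positive libraries, against 30.7% and 35.4% in the double negative libraries. *hbbe1.3* held 22.3% and 22.1% in the Venus positive libraries, against 23.2% and 22.0% in the double negative libraries. *hbbe1.2* held 11.7% and 15.0% in the Venus positive libraries, against 13.5% and 12.9% in the double negative libraries. These genes kept their place as the leading alpha-type gene and the leading beta-type copies. The least even gene between the Venus positive libraries was *hbbe1.1*, with 8.71% (95% Wilson interval 7.90 to 9.56) in Venus positive library 3 and 3.30% (2.81 to 3.87) in library 4, against 7.79% and 4.91% in the double negative libraries. Its share differed within each group by more than the Wilson intervals. These intervals leave out the error of dividing reads among similar copies, since the counts of *hbbe1.1* were estimated. From Venus positive library 3 to library 4 *hbbe1.2* rose while *hbbe1.1* fell, whereas both fell from double negative replicate 1 to replicate 2. The part of this division in the difference was not tested. *hbae3* held 4.33% and 3.98% in the Venus positive libraries, against 4.21% and 4.76% in the double negative libraries. *hbbe3* held 1.35% and 1.52% in the Venus positive libraries, against 1.43% and 1.85% in the double negative libraries.

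The other 4 genes had shares that did not overlap between the groups, in both directions. None could pass a test of the difference, since the smallest exact permutation p is 0.333. With library labels permuted, the groups fail to overlap with a probability of 0.333 per gene. A count of 4 among 10 genes is near that share, and nothing is read from it. *hbbe2* held a larger share in Venus positive libraries 3 and 4, at 1.13% (0.855 to 1.48) and 1.07% (0.805 to 1.42), against 0.648% (0.618 to 0.680) and 0.727% (0.700 to 0.754) in the double negative libraries. *hbae1* held a smaller share, at 17.0% and 15.1% in the Venus positive libraries, against 18.3% and 17.4% in the double negative libraries. *hbz* held 0.0225% and 0.0455% in the Venus positive libraries, against 0.0865% and 0.0803% in the double negative libraries. The intervals of *hbz* in both Venus positive libraries, up to 0.128% and 0.166%, reached past the double negative shares. *hbae5* was at 0 reads, against 0.0520% and 0.0360% in the double negative libraries, and 0 of 4439 and 0 of 4397 reads allow a share of up to 0.0676% and 0.0682% with a floor of 3 reads, or 0.0865% and 0.0873% by the Wilson interval used for the other genes. The scarcity of *hbz* and *hbae5* relative to the family was therefore not detectable at this depth. For *hbbe2* the intervals of the groups were apart, but they cover counting error only. For each of the 4 genes the exact permutation p was 0.333, the smallest possible, and 0.833 after Benjamini-Hochberg adjustment over the 10 genes.

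**Figure D3:**
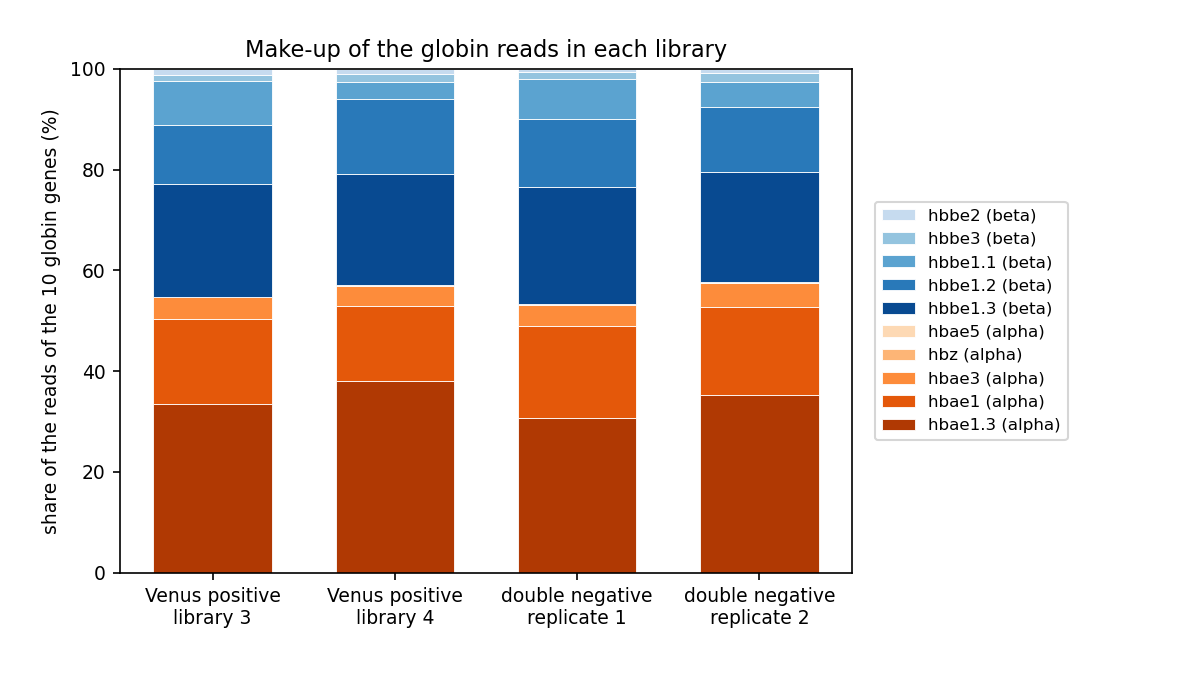
Share of the reads of the 10 globin genes (percent) taken by each gene, stacked, in the 2 Venus positive and 2 double negative libraries, with alpha-type genes in orange and beta-type genes in blue. Alpha-type genes fill 54.8% and 57.1% of the bars of Venus positive cells and 53.4% and 57.6% of those of double negative cells, and the Venus positive libraries differ most in *hbbe1.1*, at 8.71% and 3.30%.

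The globin genes moved together between the libraries of a group as well. In Venus positive library 4 the summed globin level was 0.684 times that of library 3, and all 8 genes with more than 3 reads in both were lower there, with ratios of 0.259 to 0.872. In double negative replicate 2 the sum was 1.85 times that of replicate 1, and all 10 genes were higher there, with ratios of 1.17 to 2.4. Among all listed genes lower in Venus positive cells, 166 of 270 were higher in double negative replicate 2 than in replicate 1 and 104 were not. Of the 182 of these genes with reads in Venus positive library 3, 84 were lower in library 4 and 98 were higher. Because the 10 genes moved together between libraries, they are not replicates of one another.

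Other genes of red blood cells were counted from a list of 51 non-globin genes for heme synthesis and iron, the membrane and its skeleton, enzymes, and regulators. The table held 12 of them by symbol, all lower in Venus positive cells and none higher, with a median log2 fold change of -5.79, where 35.8% of all tested genes were lower. This median includes *gata1a* (-9.83), *rhd* (-8.68) and *gfi1b* (-8.32), which had 0 reads in both Venus positive libraries. Their log2 fold changes depend on the prior count of edgeR and are no bound. A median with them at a bound was not computed, so -5.79 is not compared with the median of the globin genes. Of the whole lists, 6 of 15 membrane and skeleton genes were in the table and lower, and 2 of 7 enzymes. So were 3 of 13 regulators and 1 of 16 heme and iron genes. The 35.8% is a share of listed genes and is no background for these counts over whole lists. Of the 23016 genes the authors tested, 270 were in the table and lower in the edgeR test. The other 39 symbols were not in the table and were not analysed here. Matching by NCBI gene ID added *hemgn*, a regulator listed under another symbol, which was also lower. As for the globin genes, listing had already required a difference.

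The 6 erythroid genes with the highest mean TPM in double negative cells were all lower in Venus positive cells, to unequal degrees. *cahz*, a carbonic anhydrase of fish erythrocytes, had 7.54 and 88.5 normalized read counts in Venus positive libraries 3 and 4, against 3795 and 2825 in the double negative libraries. *slc4a1a*, the anion exchanger of the red cell membrane, had 2.51 and 23.4 in the Venus positive libraries, against 2061 and 1104 in the double negative libraries. *alas2*, the erythroid enzyme that starts heme synthesis, had 22.6 and 21.7 in the Venus positive libraries, against 1029 and 933 in the double negative libraries. These 3 genes retained 0.819% to 2.26% of their double negative level, and none overlapped between the groups. The nucleotidase gene *nt5c2l1* had 1.26 and 20.0 in the Venus positive libraries, against 629 and 402 in the double negative libraries. *dmtn*, which encodes an actin-binding protein of the red cell skeleton, had 137 and 263 in the Venus positive libraries, against 948 and 605 in the double negative libraries. *aqp1a.1*, a water channel also known from endothelium, had 184 and 151 in the Venus positive libraries, against 487 and 699 in the double negative libraries. *dmtn* and *aqp1a.1* retained 25.7% and 28.2% of their double negative level, a larger part than the other 4, and neither overlapped between the groups. Listing had required a difference, so nothing is read from the lack of overlap of these genes. Of the less abundant genes of the list, *hemgn* at 10.4%, *epb41b* at 10.3% and *sptb* at 7.04% lay between. The regulator *klf1* retained 0.920%, resting on 1 and 0 reads in the Venus positive libraries. *gata1a*, *gfi1b* and *rhd* had 0 reads there.

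In the same edgeR test with Benjamini-Hochberg adjustment, *cahz* was 68.9-fold lower in Venus positive cells (log2 fold change -6.07, SE 0.81, adjusted p = 2.0e-05), *slc4a1a* 122-fold (log2 fold change -6.84, SE 0.79), *alas2* 44.3-fold (log2 fold change -5.46, SE 0.61) and *nt5c2l1* 48.6-fold (log2 fold change -5.51, SE 0.93). Without Venus positive library 4 the log2 fold change was -8.75 for *cahz*, -9.23 for *slc4a1a* and -8.54 for *nt5c2l1*, and without library 3 it was -5.22, -6.07 and -4.68 in the same order of genes. *dmtn* was 3.88-fold lower (log2 fold change -1.95, SE 0.55, edgeR adjusted p = 0.0034) and *aqp1a.1* 3.55-fold lower (log2 fold change -1.83, SE 0.56, edgeR adjusted p = 0.0054). *dmtn* lost its call without double negative replicate 1 (edgeR adjusted p = 0.0559) and *aqp1a.1* without replicate 2 (edgeR adjusted p = 0.0872), and neither passed when adjusted over the 23016 genes. The erythroid regulators *gata1a* and *gfi1b* and the membrane gene *rhd* had 0 reads in both Venus positive libraries.

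**Figure D4:**
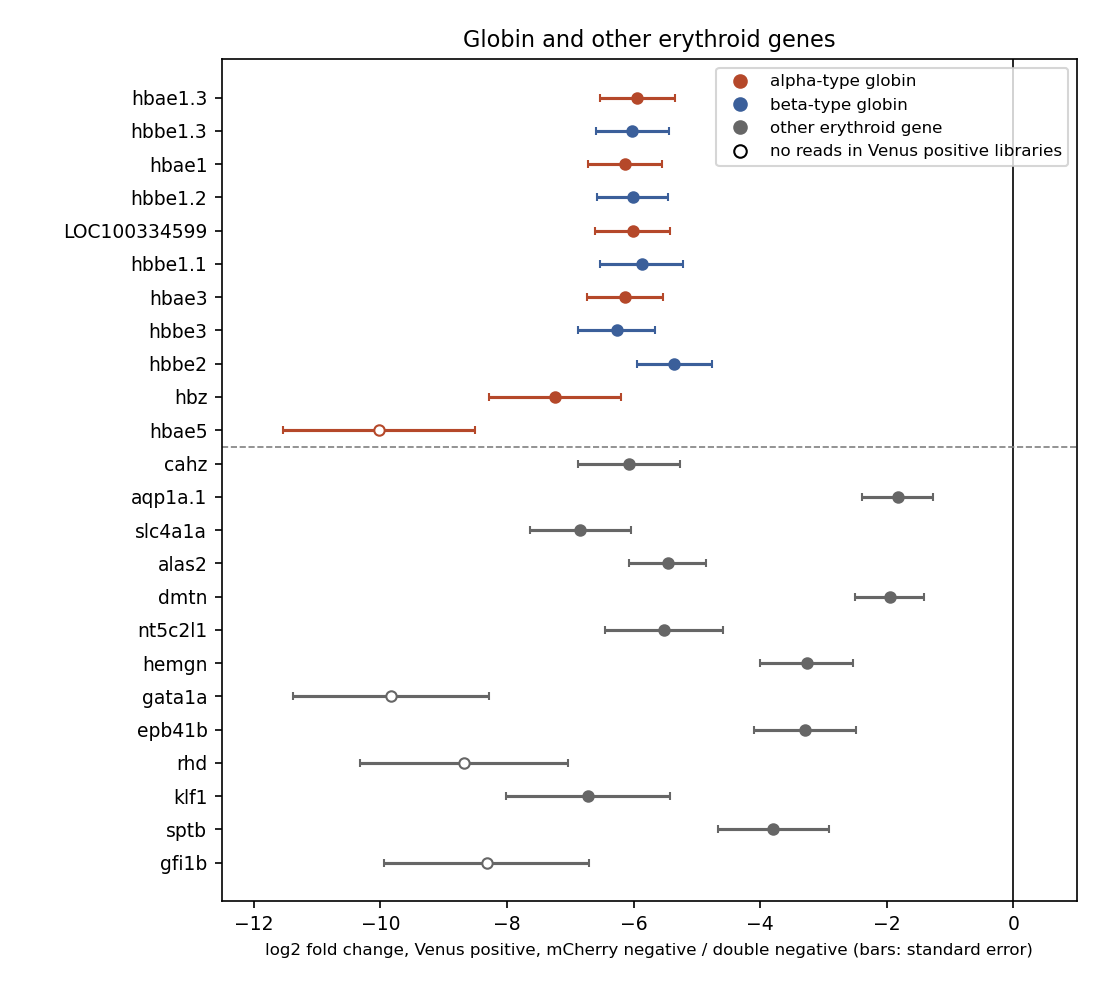
Log2 fold change of Venus positive, mCherry negative over double negative cells (points, edgeR, 2 libraries per group) for the globin genes with LOC100334599, above the dashed line, and the other erythroid genes in the table, below it, each ordered by mean TPM in double negative cells. Bars are 1 SE, derived from the statistic of the edgeR test. The better measured globin genes lie between -6.27 and -5.35, *dmtn* and *aqp1a.1* lie near -1.95 and -1.83, and open points, with no reads in Venus positive libraries, depend on the prior count and are no bound.

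The number of globin reads per read of another erythroid gene varied between the libraries of both groups. There were 740 and 43.1 globin reads per *cahz* read in Venus positive libraries 3 and 4, with 6 *cahz* reads in library 3, against 55.8 and 139 in the double negative libraries. Per *slc4a1a* read there were 2220 and 163 in the Venus positive libraries, with 2 *slc4a1a* reads in library 3, against 103 and 355 in the double negative libraries. Per *alas2* read there were 247 and 176 in the Venus positive libraries, against 206 and 420 in the double negative libraries. Library 3 exceeded both double negative values for *cahz* and *slc4a1a*, while library 4 lay below both for *cahz* and between them for *slc4a1a*. The *alas2* ratios overlapped. Per *nt5c2l1* read there were 4439 and 191 in the Venus positive libraries, against 337 and 976 in the double negative libraries. Library 3 had 1 *nt5c2l1* read. For *nt5c2l1*, too, library 3 lay above both double negative values and library 4 below both. In each group the library with more globin counts had fewer counts of *cahz*, *slc4a1a*, *nt5c2l1* and *dmtn*. In both groups *aqp1a.1*, *hemgn*, *epb41b* and *klf1* were higher in the same library as the globin genes, *klf1* on 1 and 0 reads in the Venus positive libraries. For *alas2* and *sptb* the groups differed in direction. Over the erythroid genes in the table, 5 were higher and 5 lower in Venus positive library 4 than in library 3, and 6 were higher and 7 lower in double negative replicate 2 than in replicate 1.

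Relative to *dmtn* and *aqp1a.1* the globin reads were scarcer in Venus positive cells. There were 40.7 and 14.5 globin reads per *dmtn* read in the Venus positive libraries, against 223 and 648 in the double negative libraries. Per *aqp1a.1* read there were 30.4 and 25.3 in the Venus positive libraries, against 435 and 561 in the double negative libraries. Neither ratio overlapped between the groups, with an exact permutation p of 0.333 for each, the smallest possible. With library labels permuted, the groups fail to overlap with a probability of 0.333 per ratio. The number of such ratios among the 6 erythroid genes compared is near that share, and nothing is read from it. These ratios also restate that *dmtn* and *aqp1a.1* were lower by a smaller factor than the globin genes. The exact p was between 0.667 and 1.0 for the ratios to *cahz*, *slc4a1a*, *alas2* and *nt5c2l1*, and over the 6 ratios none passed a threshold of 0.05.

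**Figure D5:**
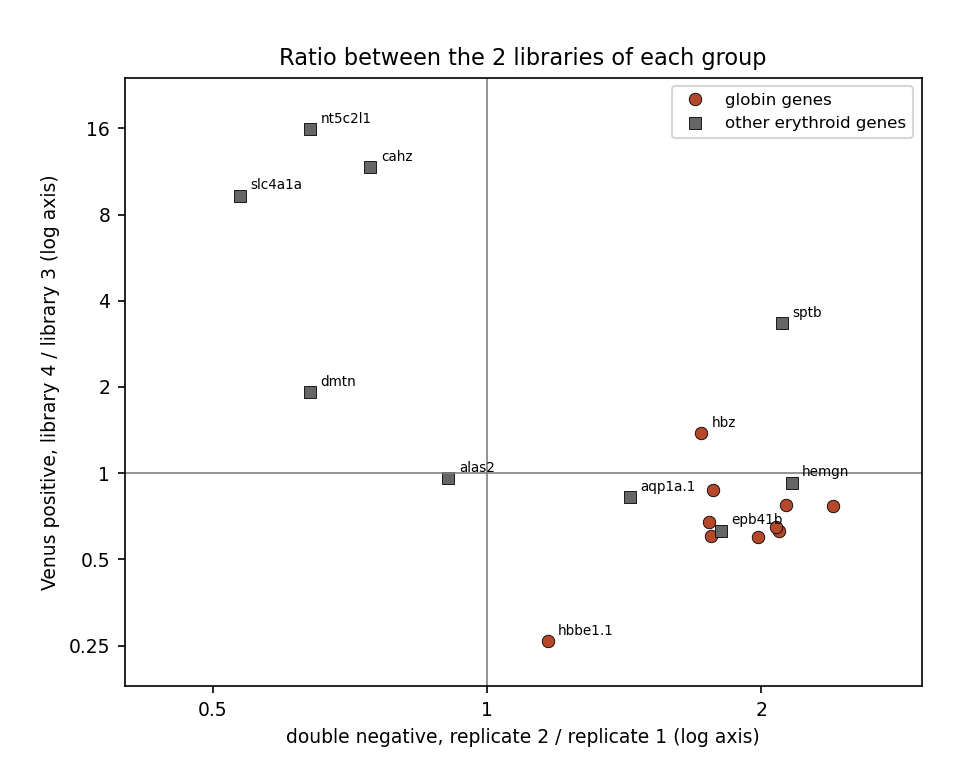
Ratio of normalized read counts between Venus positive libraries 4 and 3 (vertical, log axis) against that between double negative replicates 2 and 1 (horizontal, log axis) for globin genes with LOC100334599 (circles) and other erythroid genes (squares) that had reads in both Venus positive libraries. All globin genes lie right of 1, and below 1 except *hbz*, which rests on 1 and 2 reads, while *cahz*, *slc4a1a*, *nt5c2l1* and *dmtn* lie at upper left, with ratios up to 15.9 between the Venus positive libraries. In Venus positive library 3 *cahz* rests on 6 reads, *slc4a1a* on 2 and *nt5c2l1* on 1, so their ratios are imprecise.

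The genes whose profile over the 4 libraries was nearest to that of the summed globin counts were found by Euclidean distance between centred log2(normalized count + 1) values, among all listed genes. LOC100334599, the globin gene outside the symbol rule, was the nearest (distance 0.15), followed by *zgc:193505* (0.30), *rfesd* (0.40), *wu:fa26c03* (0.46) and *agr1* (0.46). As the fractional counts of LOC100334599 may share estimated reads with members, its closeness to their sum is not independent of them. *agr1*, an epidermal gene, had 146 and 92.0 normalized read counts in Venus positive libraries 3 and 4, against 7870 and 11717 in the double negative libraries. *zgc:193505* had 25.1 and 22.6 in the Venus positive libraries, against 1188 and 2295 in the double negative libraries. Both genes were picked for a profile like that of the globin sum over these same libraries. Their gap between groups and higher level in double negative replicate 2 follow from that choice and are no separate result. *rfesd* had 0 reads in both Venus positive libraries, against 49.3 and 86.9 normalized read counts in the double negative libraries, and *wu:fa26c03* had 0 reads in both, against 50.1 and 73.6. With no reads in Venus positive cells, the distance of *rfesd* and *wu:fa26c03* depends on the pseudocount of 1, and their place in this order is not interpretable. Among the members themselves the distance ran from 0.06 for *hbbe1.3* to 1.11 for *hbbe1.1* and 1.15 for *hbae5*, so LOC100334599 was nearer than all members but *hbbe1.3*. Each member is part of the sum while LOC100334599 is not, so the distances are not on the same footing.

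Markers of other cell types also differed between the sorted groups. Of 7 epidermal markers, *agr1*, *krt4* and *krt5* were in the table and lower, summing to 18344 and 45746 normalized read counts in Venus positive libraries 3 and 4, against 297162 and 193266 in the double negative libraries. Of 7 fibroblast markers, *col5a1*, *dcn*, *lum*, *pdgfra* and *twist1a* were in the table and higher, summing to 41574 and 30001 in the Venus positive libraries, against 6363 and 8861 in the double negative libraries. Of 4 thrombocyte markers only *thbs1b*, which encodes a thrombospondin also made outside thrombocytes, was in the table, and it was higher. No marker of neutrophils, macrophages, endothelium or neurons was in the table. Of 10 erythrocyte markers 8 were in the table by symbol, all lower. Among them *hbae3*, *hbbe1.1* and *hbbe1.3* are globin genes described above, and the other 5 were already counted in the erythroid list. The marker *hbae1.1* is the RefSeq symbol of the gene listed as *hbae1*, which was also lower. The part of these cell types in the globin difference was not tested.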

How the data were processed

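Smart-seq2 libraries of 2 Venus positive, mCherry negative and 2 double negative samples were analysed, grouped by their GEO labels. Per the labels and the methods of the study, the authors mapped reads to GRCz11 with HISAT2 2.0.4, aligned them to the gene set with Bowtie2 2.4.4, estimated expression with RSEM 1.2.28 and compared the groups with DESeq2. The deposited table holds the expected counts that the authors estimated per library, normalized counts (a signal, the count divided by a size factor), TPM and FPKM. The p-value and Q value columns of the authors' comparison were used only to find how genes were selected, and their fold changes were not used. The authors' mean TPM and mean FPKM of a group are printed without an SD. Their library numbers in the table (3 and 4) are not those of the labels. The read counts of libraries 3 and 4 were assigned to the Venus positive group only, not to a labelled sample. Another 6 per-library columns of normalized counts, TPM and FPKM of this group were left out. A further 2 FPKM columns of the double negative libraries were not needed.

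Each count was rounded up to a whole number, which gives back the deposited normalized counts of both double negative samples. Size factors were 0.796 and 1.15 for Venus positive libraries 3 and 4, recovered from the normalized counts of 7 genes in the study's source data, and 1.22 and 0.978 for the double negative libraries. Library TPM of the Venus positive cells was rebuilt from counts and mean TPM over 488 genes (largest error 1.35% where it could be checked). Total library depth was not given in any source used here. Limits and intervals cover counting error only, since the reads carry no molecular identifiers.

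The test was edgeR 4.0.16 in R 4.3.3, quasi-likelihood, two-sided, with group as the only term and a Benjamini-Hochberg threshold of 0.05, on genes reaching 10 counts in 2 or more libraries. It was tested on simulated data. The SE of a log2 fold change is its absolute value divided by the square root of the F statistic of this test. It is thus derived from the test and is approximate. Since all genes had passed a test on these libraries, the spread, and with it the p-values, can be too small. DESeq2 1.42.0 was an alternative. Exact permutation tests and Wilson intervals used scipy 1.17.1. The genes named are all members, the 6 erythroid list genes with the highest mean TPM in double negative cells, the 5 nearest profiles and *apln*. Others named were chosen after their values were seen. The members and lists were chosen with earlier results of these data known. Gene IDs were matched to a RefSeq gene table (GRCz12tu), where 737 of the 756 were found. It was used for names and neighbours only, and no coordinates or sequences are given.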

Additional observations from a re-analysis of the deposited data

How the results depend on the processing

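All 10 globin genes stayed lower in every alternative run, including those that left out each library in turn. They passed the threshold after adjustment over the 23016 genes the authors tested (highest edgeR adjusted p = 0.0022). They also passed it with TMM and RLE scaling over the listed genes, DESeq2, no filter on low counts, and rounding to the nearest whole number. These outcomes are a description, since the authors' DESeq2 comparison of these same libraries had selected every listed gene. *hbz* and *hbae5* reached the count filter through the double negative libraries alone. TMM scaling moved the median log2 fold change of all tested genes by -1.77 and RLE scaling by -1.87. Relative to that median the globin genes were at -7.93 with the authors' size factors, -7.90 with TMM and -7.92 with RLE. Calls over all genes were 484 higher and 270 lower with the authors' size factors, 84 and 270 with TMM, 72 and 270 with RLE, and 224 and 194 when adjusted over the 23016 genes. Leaving out each library gave a globin median of -6.48 to -5.55. The globin share of TPM was 0.160% in Venus positive cells and 9.30% in double negative cells with LOC100334599, chosen after seeing the data. As a share of the mean FPKM of the listed genes alone it was 2.58% in Venus positive cells and 57.8% in double negative cells, since the denominator then held only listed genes. The share without each library ran from 0.134% to 0.153% in Venus positive cells and from 7.00% to 9.68% in double negative cells. Of the non-globin erythroid genes, 10 of 12 were called when adjusted over the 23016 genes and 11 or 12 when a library was left out. No paired analysis was possible because the Venus positive libraries are 3 and 4 in the table but 1 and 2 in the labels. The 2 libraries per group and the unknown full depth limit all of these values, and *hbz* and *hbae5* are limited by their 3 and 0 reads in Venus positive cells.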
